A study of Mus musculus with 8 samples.

Results

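miR-21 was measured in C3H10T1/2, a line of mouse mesenchymal cells in which hedgehog proteins raise Gli activity, after induction with a wild type or a mutant hedgehog protein. Its 2 arms were found by name on the array, as miR-21-5p with 2 probes and miR-21-3p with 4. They make up 6 of the 1759 probes for mouse microRNAs (miRNAs) and 2 of the 611 mouse miRNAs that these probes measure. miR-21-5p gave a strong signal on every array, was brightest in both control samples and stood lower in all WT and MT samples, while miR-21-3p was detected on no array.

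The WT group received 750 nM wild type IhhN and the MT group 750 nM IhhN with the E95K change, each for 48 h, and the control group received no induction. IhhN is the N-terminal signaling part of Indian hedgehog (IHH), here a recombinant human protein made in bacteria, and E95K is a change that causes brachydactyly type A1, a shortening of the fingers. Each group had 2 RNA samples (n = 2), and each WT sample was hybridized on 2 arrays, which gave 8 one-colour arrays on 1 slide. WT replicate 1 and both MT samples lay in columns 1 and 2 of the slide, and WT replicate 2 and both control samples in columns 3 and 4. All WT arrays lay in row 1 of the slide and all MT and control arrays in row 2. The labels state a dose of 750 nM for the control group as well as the absence of induction, and no source used here says what that dose was. Nothing states that the replicates came from separate cultures, so p-values measure only the spread between these samples, which may be technical.

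A miRNA gene is transcribed as a hairpin, from which enzymes cut a short duplex of the 5p and the 3p arm. One arm is usually kept by an Argonaute protein and the other is degraded. The kept arm pairs through its seed, bases 2 to 8, with sites in mRNAs and lowers their output. miR-21-5p is the kept arm of miR-21, is abundant in mesenchymal cells and fibroblasts, and is known for promoting growth and survival, with Pdcd4 among its targets. Hedgehog proteins bind the receptor Patched 1, which releases Smoothened and activates Gli transcription factors.

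The sequences of both arms are shown because they differ in base composition and only one of them was detected. They are RefSeq sequences on GRCm38.p6, where miR-21-5p and miR-21-3p of the array are named miR-21a-5p and miR-21a-3p. miR-21a-5p lies at chr11:86584120-86584141 and miR-21a-3p at chr11:86584082-86584103, both on the minus strand, inside the span of the protein-coding gene Vmp1. Capitals mark the seed.
miR-21a-5p: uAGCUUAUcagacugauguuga
miR-21a-3p: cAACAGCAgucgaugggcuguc
miR-21c: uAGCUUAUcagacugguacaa
Both arms have 22 bases, with a GC content of 36.4% in miR-21a-5p and 59.1% in miR-21a-3p. miR-21c was the only other mature miRNA of the RefSeq table with the seed of miR-21a-5p, and its first 15 bases are identical to those of miR-21a-5p. Among the mouse miRNAs on the array with a sequence in that table, no other had the seed of either arm. Some miRNAs on the array have no sequence there and could not be checked, so a family member among them is not excluded.

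Values are spot intensities on a linear scale, or scaled signals on the log2 scale after division by an array's own 75th percentile over detected probes. Both probes of miR-21-5p were printed in 10 spots per array, and all spots used, 76 for the brighter probe and 72 for the dimmer one over the 8 arrays, were well above background. At the brighter probe, the mean intensity before scaling was 6778 and 5859 in the control samples, 2089 and 2837 in the MT samples, 1766 and 1895 on the arrays of WT replicate 1, and 3551 and 2855 on those of WT replicate 2. At the dimmer probe it was 3251 and 2665 in the control samples, 947 and 1323 in the MT samples, 864 and 810 on the arrays of WT replicate 1, and 1531 and 1239 on those of WT replicate 2. The control arrays were therefore the 2 brightest at either probe before arrays were scaled. They also had the highest 75th percentile over detected probes, 785 and 606, against 432 to 565 on the WT and MT arrays. The order before scaling thus does not by itself show a change of miR-21-5p. The coefficient of variation over the spots of a probe within an array was 2.26 to 8.11% for the brighter probe and 2.46 to 10.1% for the dimmer one.

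After scaling, the brighter probe had a log2 signal of 12.02 and 12.18 in the control samples, 11.15 and 11.63 in the MT samples, 10.76 and 10.92 on the arrays of WT replicate 1, and 11.56 and 11.60 on those of WT replicate 2. Every WT and MT array was below both control arrays, and the WT and MT arrays overlapped. The dimmer probe had 10.96 and 11.05 in the control samples, 10.01 and 10.53 in the MT samples, 9.73 and 9.69 in WT replicate 1, and 10.35 and 10.40 in WT replicate 2. Both probes thus placed the arrays in nearly the same pattern, with the control samples highest and WT replicate 1 lowest. The brighter probe stands for miR-21-5p below.

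**Figure D1:**
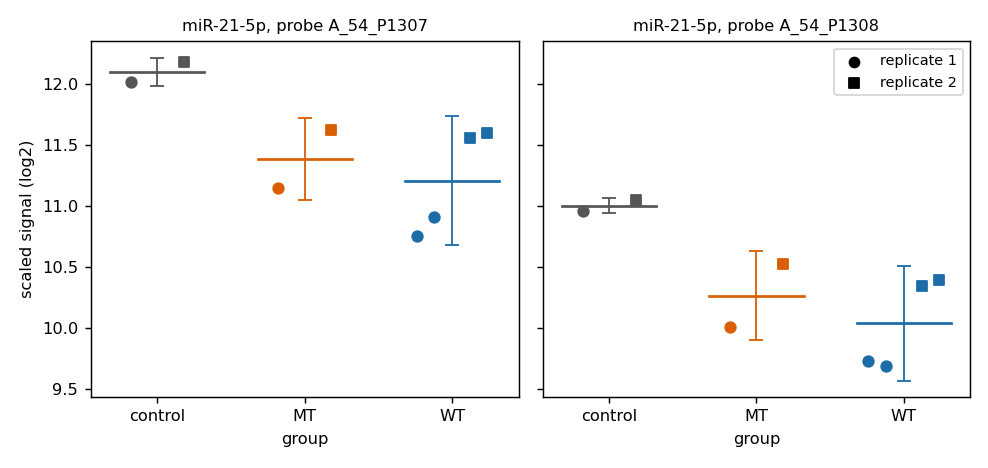
Scaled log2 signal (y axis) of the 2 probes of miR-21-5p in the control, MT and WT groups (x axis). Each point is 1 array, with 2 arrays for each WT replicate, the horizontal lines are group means and the bars are the SD over n = 2 RNA samples. At either probe, both control arrays lie above all MT and WT arrays.

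The mean level of miR-21-5p was 12.10 ± 0.12 in control, 11.39 ± 0.34 in MT and 11.21 ± 0.53 in WT (log2, SD, n = 2). From lowest to highest, the RNA samples stood at 10.84 for WT replicate 1, 11.15 for MT replicate 1, 11.58 for WT replicate 2, 11.63 for MT replicate 2, 12.02 for control replicate 1 and 12.18 for control replicate 2. WT and MT samples alternated in this order. The step from the highest MT sample to the lowest control sample was 0.39, which was less than the gap of 0.48 between the 2 MT samples and that of 0.74 between the 2 WT samples. Over the 142 miRNAs tested, the median SD between replicates was 0.13 in WT, 0.12 in MT and 0.14 in control. A larger SD than that of miR-21-5p was found for 5 of the 142 in WT, 22 in MT and 94 in control. The second array of a WT replicate differed from the first by 0.16 in replicate 1 and 0.04 in replicate 2, so the gap between the WT replicates was larger than that between arrays of the same RNA.

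In WT against control, which asks what the wild type protein does, miR-21-5p differed by -0.89 on the log2 scale (SE 0.28, 95% interval -1.55 to -0.23), or 1.86-fold lower with an interval of 1.17 to 2.94. The adjusted p was 0.139 (limma, Benjamini-Hochberg over 142 miRNAs) and did not pass the threshold of 0.05. No miRNA passed it in this comparison (0% of those tested), and 40 of the 142 (28.2%) had an unadjusted p under 0.05, of which 15 (10.6%), with miR-21-5p among them, were lower in WT. miR-21-5p was the fourth lowest of the 142 differences, whose median was 0.12. Both WT samples lay below both control samples, which 36 of the 142 miRNAs (25.4%) also showed in this direction.

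In MT against control, the same question for the mutant protein, miR-21-5p differed by -0.71 (SE 0.28, 95% interval -1.38 to -0.05), or 1.64-fold lower with an interval of 1.04 to 2.59. The adjusted p of 0.106 (limma) did not pass either. Again no miRNA passed (0%), and the smallest adjusted p of all 142 was 0.0617, while 56 (39.4%) had an unadjusted p under 0.05 and 18 of these (12.7%), miR-21-5p included, were lower in MT. miR-21-5p was the sixth lowest of the differences, whose median was 0.13. Both MT samples lay below both control samples, as for 38 of the 142 miRNAs (26.8%). Both comparisons use the same control samples, and all 4 WT and MT samples lay below both control samples for 30 of the 142 miRNAs (21.1%), miR-21-5p among them.

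In WT against MT, which asks what the E95K change alters, the difference of miR-21-5p was -0.18 with a 95% interval of -0.84 to 0.48 and an adjusted p of 0.990 (limma). No miRNA passed here (0%), and none had an unadjusted p under 0.05. The interval reaches 1.79-fold lower in WT and includes higher levels in WT, so these arrays do not show that both proteins act alike on miR-21-5p. The F test over the 3 groups gave an adjusted p of 0.155 for miR-21-5p (limma). It gave an unadjusted p under 0.05 for 41 of the 142 miRNAs (28.9%), among them miR-21-5p with 0.0340, and an adjusted one for 0. The dimmer probe differed by -0.96 in WT against control (adjusted p = 0.162, limma over probes), by -0.74 in MT against control (adjusted p = 0.0907) and by -0.23 in WT against MT.

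The side of the slide moved with the groups. Within columns 1 and 2, WT replicate 1 lay below the mean of the MT samples by a difference of -0.55, and within columns 3 and 4, WT replicate 2 lay below the mean of the control samples by a difference of -0.52 (log2). With a term for the side, WT against control was -0.52 (adjusted p = 0.469, limma) and MT against control was 0.03 (adjusted p = 0.972). Both MT samples were in columns 1 and 2 and both control samples in columns 3 and 4, so MT and side cannot be told apart except through the WT samples. The side term thus rests on the gap between the WT replicates alone. With it, WT against control compares WT replicate 2 with the control samples, as the fit without WT replicate 1 does. All WT arrays lay in row 1 and all others in row 2, so WT and row cannot be told apart. Under another background correction (normexp on the median signal), miR-21-5p passed the threshold in WT against control, at -0.94 (adjusted p = 2.15e-05, limma). There 22 of 142 miRNAs (15.5%) passed, 2 of them lower (1.41%). In MT against control miR-21-5p passed at -0.77 (adjusted p = 0.000939, limma), where 40 (28.2%) passed, 6 of them lower (4.23%). Its SE was 0.18 there, against 0.28 as reported, while its WT arrays still ran from 10.82 to 11.70. limma shares the spread over miRNAs, and in the normexp fit the shared spread had nearly all the weight. These p-values therefore hardly reflect the spread of miR-21-5p between its own replicates. Without WT replicate 1, WT against control moved to -0.52, and without MT replicate 2 the difference of MT against control was -0.95 and passed (adjusted p = 0.0425, limma), as did 30 of the 142 miRNAs (21.1%), 13 of them lower (9.15%).

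**Figure D2:**
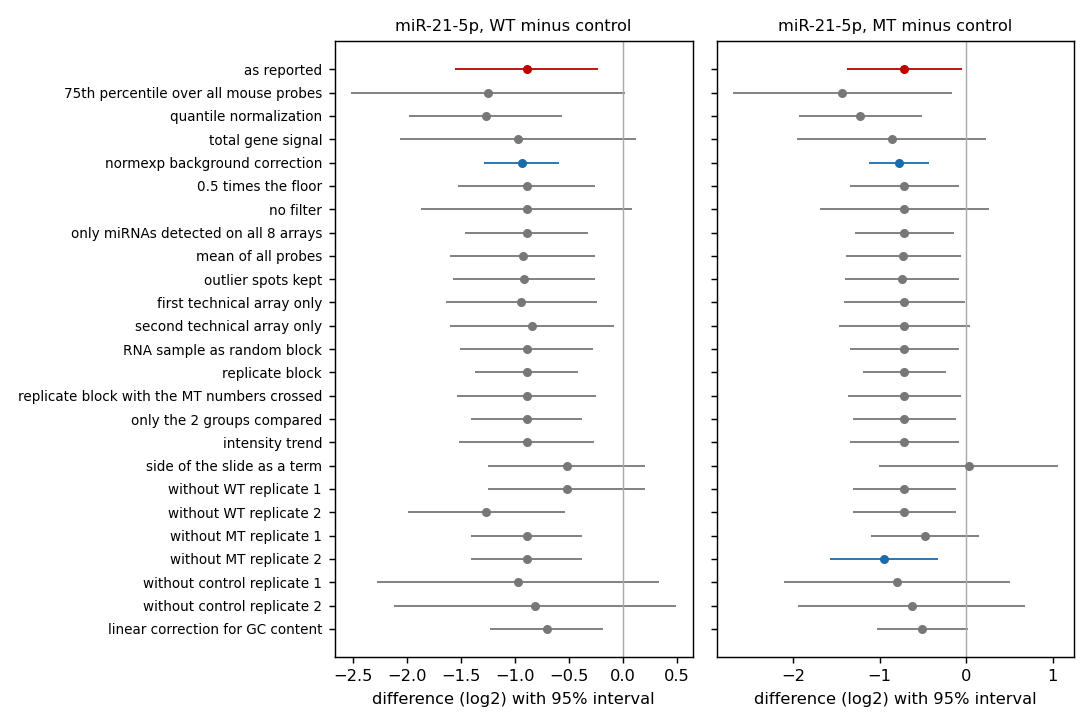
Log2 difference of miR-21-5p (x axis) in WT against control and in MT against control as reported and under 24 other ways of processing the arrays (y axis), each with its 95% interval from limma. Blue marks an adjusted p under 0.05. WT against control is below 0 in all 24, and MT against control in 23, the exception being the fit with a term for the side (0.03). Changes of the floor, filter, block or intensity trend, or of samples outside a comparison, cannot move its difference and alter only the interval. These counts are therefore not counts of separate checks of the direction.

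Rank places the signal of a miRNA among all 611 mouse miRNAs on the same array, with 1 for the brightest. It ranks probe signal and not abundance, because probes differ in labelling and hybridization, so it is compared only between arrays. miR-21-5p ranked 3 and 3 on the control arrays, 9 and 7 on the MT arrays, 9 and 10 on the arrays of WT replicate 1, and 7 and 7 on those of WT replicate 2. The control arrays thus held it 4 places or more above every induced array. Only miR-125b-5p, an abundant miRNA of mesenchymal cells, and miR-720 were brighter on all 8 arrays. With the signal that Feature Extraction sums over probes, the ranks were 7 and 3 in the control group, 10 and 12 in the MT group, and 15, 12, 12 and 9 on the WT arrays, so the control arrays again stood higher than the rest.

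The change of rank came with let-7a-5p, let-7b-5p and let-7c-5p, of a family known for restraining growth, crossing over miR-21-5p. Other let-7 miRNAs went both ways against control. In WT and MT, let-7d-5p was at 0.33 and 0.43 and let-7e-5p at 0.19 and 0.27. By contrast, let-7g-5p was at -0.20 and -0.30 and let-7i-5p at -0.14 and -0.23. The let-7 names in this paragraph were chosen after their values were seen. let-7a-5p, let-7b-5p, let-7c-5p and miR-709 were brighter than miR-21-5p on all 6 WT and MT arrays and dimmer on both control arrays. let-7b-5p stood at 11.27 and 11.45 in the control samples, 12.13 and 11.94 in the MT samples and 11.92 and 11.86 in the WT samples (log2). Its difference was 0.53 in WT against control (adjusted p = 0.139, limma) and 0.67 in MT against control (adjusted p = 0.0617), neither of which passed. All 4 WT and MT samples lay above both control samples for 49 of the 142 miRNAs (34.5%), let-7b-5p among them. In mean rank over the arrays, miR-21-5p at 6.88 had miR-709 at 5.62 and let-7b-5p at 5.88 just above it, and miR-23a-3p at 7.38 and let-7f-5p at 8.62 just below. miR-23a-3p and let-7f-5p differed little from control, by -0.06 and 0.01 in WT and by -0.08 and 0.12 in MT.

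**Figure D3:**
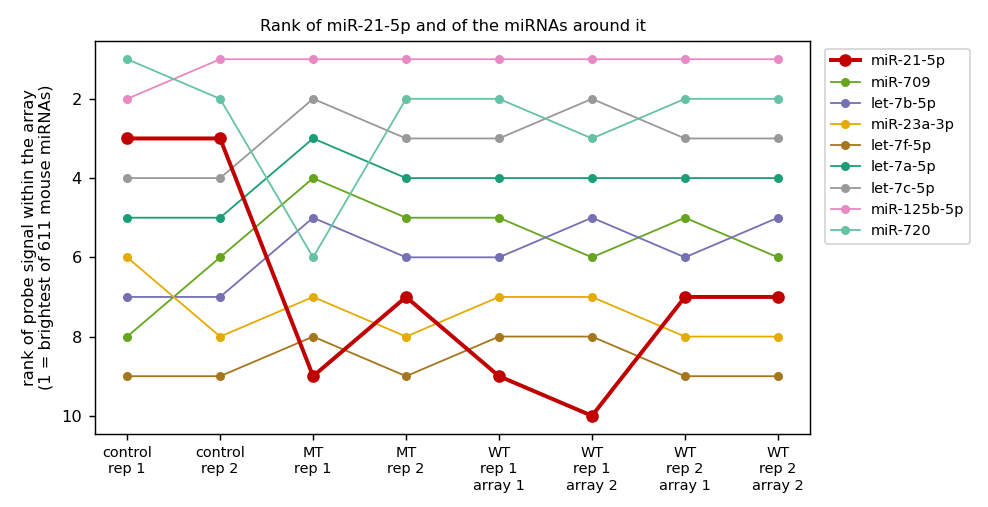
Rank of probe signal within the array (y axis, 1 for the brightest of 611 mouse miRNAs) on each of the 8 arrays (x axis) for miR-21-5p, in red, its neighbours in mean rank and the miRNAs that were brighter on all arrays or crossed over it. Lines join the values of 1 miRNA and do not imply an order of the arrays. miR-21-5p is at rank 3 on both control arrays and between 7 and 10 on the WT and MT arrays.

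The other arm, miR-21-3p, stayed within the background. Its 4 probes, printed in 5 spots each, gave mean intensities between -6.31 and 16.5 over the 8 arrays, and 22 of these 32 means were below 0. Of the 155 spots used, 2 were well above background. Both belonged to 1 probe on the first array of WT replicate 1, whose mean of 16.5 was the only one over 2 SDs of that array's negative control spots, and that array had the widest negative controls, with an SD of 6.63 against 2.91 on the narrowest. The second array of the same RNA had no such spot. miR-21-3p was not tested and gets no fold change, and its level in any group was not detectable on these arrays.

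Of the 141 other miRNAs tested, 14 had a Pearson correlation over 0.9 with miR-21-5p over the 6 RNA samples. These correlations are descriptions over samples that share 3 groups and a slide. The 5 most alike are shown with their sequences, seed in capitals (RefSeq, GRCm38.p6). All 5 had a GC content below the median of 47.6% over the tested miRNAs with a sequence.
miR-301a-3p: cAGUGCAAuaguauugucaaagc
miR-19b-3p: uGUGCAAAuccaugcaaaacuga
miR-26b-5p: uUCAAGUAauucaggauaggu
miR-148a-3p: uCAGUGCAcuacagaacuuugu
miR-31-3p: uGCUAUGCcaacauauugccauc
Their correlation with miR-21-5p was 0.993, 0.992, 0.977, 0.960 and 0.959 in this order, and their GC content was 39.1, 39.1, 33.3, 40.9 and 43.5%.

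miR-301a-3p, of the miR-130 family, had levels of 4.93 and 5.96 in the WT samples, 5.17 and 5.86 in the MT samples and 6.42 and 6.57 in the control samples, and was detected on 6 of the 8 arrays. miR-19b-3p, of the growth-promoting miR-17-92 cluster, had 4.34 and 5.48 in WT, 4.87 and 5.29 in MT and 5.95 and 6.15 in control, and was detected on 5. In both, replicate 1 of each group was the lower one, as in miR-21-5p. miR-26b-5p had 6.33 and 6.76 in WT, 6.45 and 6.69 in MT and 7.14 and 7.32 in control. The differences of the 5 from control ranged from -1.14 to -0.49 in WT and from -0.98 to -0.56 in MT, and none passed the adjusted threshold. The most opposite in pattern were miR-145-5p, a smooth muscle and mesenchymal miRNA, at -0.953, miR-25-3p at -0.917 and miR-34b-3p, a target of p53, at -0.916. Their differences from control were 0.35, 0.32 and 0.37 in WT and 0.36, 0.33 and 0.45 in MT, and none passed.

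Base composition moved with these differences. Of the 142 miRNAs tested, 122 had a sequence in the RefSeq table, and their median GC content was 47.6%. The log2 difference correlated with GC content across these 122 miRNAs with Pearson r = 0.50 (Spearman 0.53) in WT against control and r = 0.52 (0.54) in MT against control, which share the control samples, and with r = -0.27 (-0.21) in WT against MT. Replicates of 1 group differed with GC content too, with r = 0.36 for WT replicate 1 minus replicate 2 and r = 0.27 for the MT samples, against -0.09 for the control samples. The miRNAs of 1 array are not independent, and these values are descriptions. Only 12 of the 122 had a lower GC content than miR-21-5p.

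Among the 42 miRNAs with the lowest GC content, 31.8 to 40.9%, which include miR-21-5p, the median difference was -0.26 in WT against control and -0.23 in MT against control. Among the 40 with the highest GC content, 52.2 to 72.7%, the medians were 0.31 and 0.50. Of those 42 with the lowest GC content, 3 miRNAs were below miR-21-5p in WT against control and 5 in MT against control. The 4 other miRNAs tested with the GC content of miR-21-5p, 36.4%, stood on both sides of 0. let-7g-5p differed from control by -0.20 in WT and -0.30 in MT, miR-29c-3p by -0.38 and -0.36, miR-450b-3p by -0.12 and 0.32, and let-7a-5p by 0.36 and 0.52. miR-450b-3p was at the floor of 3.97 in WT replicate 1 and MT replicate 2, and its 0.32 in MT rests on MT replicate 1 at 5.27. With a linear correction of each sample for GC content, chosen after the data were seen, miR-21-5p stood at 11.87 and 12.07 in the control samples, 11.27 and 11.66 in MT and 11.00 and 11.53 in WT, and both control samples remained above the rest. Before the correction, 30 of the 142 miRNAs tested (21.1%) had this order. Its differences were then -0.70 in WT against control (adjusted p = 0.211, limma) and -0.51 in MT against control, with no miRNA past the threshold. The part of base composition in the result was not tested beyond this correction.

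**Figure D4:**
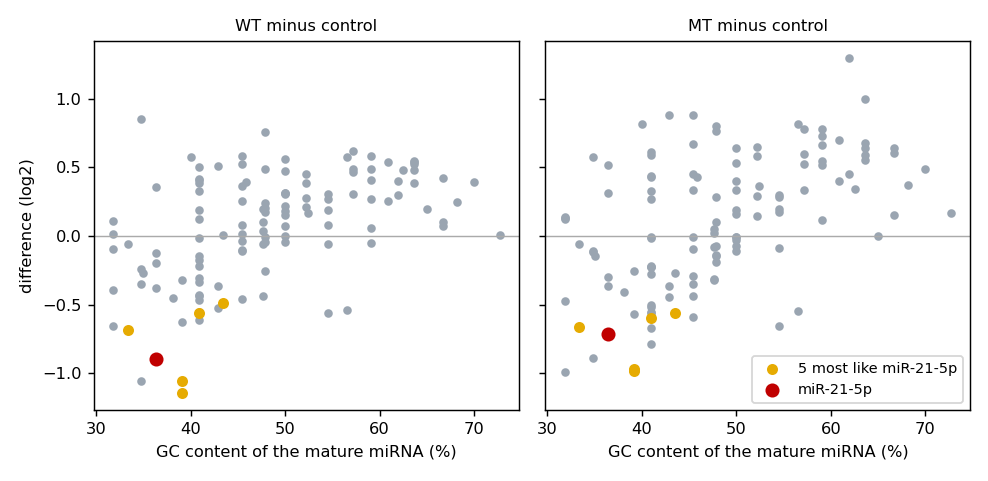
Log2 difference from control (y axis) of the 122 tested miRNAs with a sequence against the GC content of the mature miRNA in percent (x axis), for WT and for MT. Each point is 1 miRNA, with miR-21-5p in red and the 5 miRNAs most like it in yellow. miRNAs of low GC content lie lower, and miR-21-5p is at -0.89 and -0.71.

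Lists of miRNAs that share known roles with miR-21 held differences on both sides of 0. Of 26 growth-promoting miRNAs on the array (the miR-17-92 cluster and its relatives, miR-155, miR-221, miR-222 and others), 13 were tested and 0 passed in any comparison. Their median difference was 0.18 in WT against control and 0.15 in MT against control, beside 0.12 and 0.13 over all miRNAs tested. miR-93-5p and miR-92a-3p, both from clusters that promote the cell cycle, were above control by 0.45 and 0.47 in WT and by 0.65 and 0.53 in MT, while miR-106b-5p, from the cluster of miR-93, was at -0.52 and -0.44.

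Of 41 growth-restraining miRNAs (let-7, miR-15 and miR-16, miR-34, miR-29, miR-143, miR-145 and miR-26), 26 were tested and 0 passed, with medians of -0.07 in WT and -0.02 in MT against control. miR-29b-3p, which targets collagen mRNAs, had 5.79 and 6.41 in WT, 6.31 and 6.22 in MT and 7.25 and 7.07 in control, and differed by -1.06 in WT against control (adjusted p = 0.139, limma) and by -0.89 in MT against control (adjusted p = 0.0617). let-7b-5p and let-7c-5p of the same list were at 0.53 and 0.50 in WT and at 0.67 and 0.61 in MT, so the list held values on both sides.

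Of 42 miRNAs linked to fibrosis or to TGF-beta and BMP signaling, miR-21-5p among them, 17 were tested and 0 passed, with medians of 0.02 in WT and -0.10 in MT against control. miR-214-3p and miR-199a-5p, which lie in 1 cluster and mark mesenchymal cells, were at 0.49 and 0.39 in WT and at 0.78 and 0.59 in MT. The other arm of the latter, miR-199a-3p, was at -0.22 and -0.21, and miR-29b-3p, which this list also holds, at -1.06 and -0.89, so this list too had values on both sides. In WT against MT the medians of the 3 lists were -0.07, -0.03 and -0.01, beside -0.04 over all miRNAs tested.

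The arrays showed 104 to 150 mouse miRNAs detected per array and no saturated spot. The fewest, 104 and 117 for WT replicate 1 and 106 for MT replicate 1, were on the arrays with the lowest miR-21-5p. Those arrays also had the widest negative controls, with SDs of 6.63, 3.76 and 5.61 in this order. The part of array quality in the result was not tested. Of 21 mesenchymal marker miRNAs, 13 were detected on all 8 arrays and 4 on none, and their summed scaled level ranged over 17411 to 20064 for WT, 19100 to 19625 for MT and 15160 to 17133 for control arrays. From 52.7 to 59.3% of this sum came from miR-125b-5p, and without it the sums of 7131 to 8103 on control arrays overlapped those of 7912 to 8260 for WT and 7920 to 8317 for MT. Of the 17 mesenchymal markers tested, 11 were above and 6 below control in WT, and 8 above and 9 below in MT, and the part of these markers in the result was not tested. Of 56 marker miRNAs of liver, muscle, neurons, blood, epithelium, embryonic stem cells and endothelium, 54 were detected on no array, the exceptions being miR-128-3p on 5 arrays and miR-290-3p on 1. All values are relative to the other miRNAs of the array, and less miR-21 per cell and fewer cells that hold it cannot be told apart.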

How the data were processed

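miRNAs were measured in the WT, MT and control groups (2 RNA samples each) on one-colour Agilent miRNA arrays. Per array, the authors deposited a scanner file with the processed intensity of every spot after background subtraction by Feature Extraction, and a series table. That table holds the background-subtracted intensity, equal to the scanner files within 0.5 signal units and with no normalization between arrays, so it was no separate alternative. The file headers name Feature Extraction 10.7.1.1 and mouse build mm9, while the submitters' processing notes name version 9.1. Other deposited columns used (unit other) were marks for outlier, background and saturation. How the authors normalized the arrays against each other was not given in the sources used here.

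Spots kept after removal of controls and outliers were averaged per probe. A probe counted as detected where over 50% of its spots were well above background. Scaling used the 75th percentile over 174 probes, those detected on every array (432 to 785 signal units), since under 50% of the miRNAs were detected. A floor of 3.97 was set and log2 taken. The brightest probe stood for each miRNA, and both arrays of a WT replicate were averaged. Tested were the 142 miRNAs that every array of some group detected. A difference of a miRNA that is at the floor in one group is a bound.

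All 6 RNA samples were fitted together with limma 3.58.1 in R 4.3.3 (lmFit, eBayes, 3 residual degrees of freedom, Benjamini-Hochberg, threshold 0.05), without a replicate block. The fit was tested on simulated data. Sequences and positions are those of RefSeq on GRCm38.p6 and were not combined with mm9 coordinates. Of the 142 miRNAs, 118 matched by name and 4 with a letter added. Figures were drawn with matplotlib 3.10.9.

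Named were both arms of miR-21, miRNAs with their seeds, the 5 most like and 3 most unlike miR-21-5p by Pearson correlation over 6 samples, its 4 neighbours in mean rank, and up to 3 members of each list with the smallest p. The members, lists and alternatives were chosen with earlier results of these data known. The alternatives covered scaling, background correction, floor, filter, probes, outlier spots, technical arrays, replicate block, samples in the fit, intensity trend, slide side, base composition and leaving out each replicate. The number of arrays limits the precision.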

Additional observations from a re-analysis of the deposited data

How the results depend on the processing

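miR-21-5p was below control in WT under all 24 alternatives, from -1.27 to -0.52 on the log2 scale (adjusted p from 2.15e-05 to 0.830, limma), and in MT under 23, from -1.43. The exception was the fit with a term for the side of the slide, with 0.029 in MT against control. That fit takes the effect of the side from the gap of 0.74 between the WT replicates alone. Its -0.52 in WT against control is the same value as without WT replicate 1, and not a separate result. What lay behind the gap between the WT replicates was not tested. Many of the alternatives could not move the difference: changes of the floor, filter, block or intensity trend, and of samples outside the comparison. They left it at -0.89 in WT or -0.71 in MT and altered only its SE and p-value. The counts of 24 and 23 are therefore not counts of separate checks of the direction. miR-21-5p passed the threshold under normexp, at -0.94 in WT and -0.77 in MT, with an SE of 0.18 against 0.28 as reported. That SE came almost wholly from the spread shared over miRNAs. Leaving out 1 replicate gave -1.26 to -0.52 in WT against control, -0.95 to -0.48 in MT against control and -0.55 to 0.19 in WT against MT. It passed without MT replicate 2 (-0.95 in MT against control). WT against MT changed sign without WT replicate 1 (0.19), without MT replicate 2 (0.06) and with scaling by all mouse probes (0.18). That scaling moved the median of all miRNAs tested to -0.19 in WT against control, -0.52 in MT against control and 0.30 in WT against MT, and relative to it miR-21-5p was at -1.06, -0.91 and -0.12.

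No miRNA passed in any comparison as reported. In WT against control, 22 passed with normexp, 3 with total gene signal, 1 with a halved floor and 1 with only both groups compared in the fit. In MT against control, 40 passed with normexp, 3 with total gene signal, 1 with a halved floor, 29 among miRNAs detected on every array, 11 with a random block for the RNA sample and 1 with no filter, a void test because over 50% of the variances were 0. Leaving out 1 replicate gave 0 to 1 in WT against control (1 without either MT replicate), 0 to 30 in MT against control (30 without MT replicate 2) and 0 to 1 in WT against MT (1 without MT replicate 2).

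A block of the replicate number cannot move the differences, because each number occurs in every group. With this block, miR-21-5p stayed at -0.89, -0.71 and -0.18, with 0 miRNAs past the threshold in each comparison, and no call changed. Deviations of same-numbered samples correlated at 0.02 between WT and MT, at 0.39 between WT and control and at -0.46 between control and MT. The numbers thus showed no pairing common to the 3 groups, but 2 samples per group cannot exclude one. A block with the numbers of the MT samples crossed, chosen after the data were seen, gave 0, 26 and 0 calls.

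The mean rank of miR-21-5p, 8.25 in WT, 8 in MT and 3 in control, was 12, 11 and 5 with total gene signal, and 5.5 in MT and 2.5 in control with the mean of all probes. miR-21-3p was below background under the detection rule, which limits what can be said of it.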
